A study of Mus musculus with 2 samples.

Results

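The 10 genes described here belong to the BCL-2 family, the proteins that hold or release the mitochondrial step of apoptosis. They were taken by symbol from the gene tables of both libraries, where each symbol matched 1 of 55536 gene rows, so that 10 of 55536 genes are members. The choice was by name and used no threshold on their values. The 6 pro-survival members are Bcl2, Bcl2l1, Mcl1 and the paralogs Bcl2a1a, Bcl2a1b and Bcl2a1d. The 4 pro-death members are the effectors Bax and Bak1 and the BH3-only genes Bcl2l11 and Pmaip1.

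The RNA was the polyadenylated fraction of whole-cell extracts of macrophages, grown from bone marrow of C57BL/6J mice and exposed to 100 ng/mL of a stimulus for 300 min. The labels disagree on the stimulus, which is Lipid A in the description and the protein lipoprotein A elsewhere. Age and sex of the animals were not collected, and no genetic change or further agent is named. The series holds 1 group of 2 libraries, biological replicates 1 and 2, which are 2 biosamples under 1 donor record, and no unstimulated group was analysed. What follows therefore describes levels after stimulation and how far 2 libraries differ, never a change caused by stimulation. The total of expected counts was 38078399 for replicate 1 and 63705317 for replicate 2.

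BCL-2 family proteins meet at the outer mitochondrial membrane. Bax and Bak1 form the pores that release cytochrome c, the pro-survival proteins bind and restrain them, and BH3-only proteins either occupy the pro-survival proteins or activate the effectors. In myeloid cells Mcl1 and the Bcl2a1 genes are known for short-lived proteins that sustain survival, and Bcl2a1 is a known NF-kB target that inflammatory stimuli induce. Transcript levels say nothing of protein amount, binding or death, which were not measured.

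The Bcl2a1 paralogs, which encode the protein A1, are nearly the same gene 3 times over. On mm10 chromosome 9 they lie at chr9:88723285-88731914 on the minus strand (Bcl2a1d, ENSMUSG00000099974.1), chr9:88956900-88962419 on the plus strand (Bcl2a1a, ENSMUSG00000102037.1) and chr9:89199209-89207827 on the plus strand (Bcl2a1b, ENSMUSG00000089929.1), with gaps of 225 kb and 237 kb between them. Each has 1 annotated transcript with a coding sequence of 516 bases. The first 120 coding bases are shown because 7 of the 12 positions at which the 3 coding sequences differ lie there. Capitals mark the positions that differ.
Bcl2a1a: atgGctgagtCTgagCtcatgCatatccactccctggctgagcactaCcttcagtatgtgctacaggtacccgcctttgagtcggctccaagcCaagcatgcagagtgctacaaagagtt
Bcl2a1b: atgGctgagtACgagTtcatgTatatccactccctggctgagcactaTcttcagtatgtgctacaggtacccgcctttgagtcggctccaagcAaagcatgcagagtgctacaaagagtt
Bcl2a1d: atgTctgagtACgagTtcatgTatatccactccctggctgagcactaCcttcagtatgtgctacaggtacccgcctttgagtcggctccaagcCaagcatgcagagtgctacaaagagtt

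Over the whole coding sequence Bcl2a1a and Bcl2a1b differ at 11 bases (97.9% identity), Bcl2a1a and Bcl2a1d at 7 bases (98.6%) and Bcl2a1b and Bcl2a1d at 6 bases (98.8%). The longest run of coding bases without a difference among the 3 is 217 bases, positions 95 to 311 counted from the start codon. Of all stretches of 50 bases in the transcript, 69.0% in Bcl2a1a, 79.2% in Bcl2a1b and 79.5% in Bcl2a1d also occur in the transcript of another gene. At 100 bases these shares were 43.5%, 56.8% and 54.7%. Reads from such stretches were divided among the paralogs by the authors' estimate, so the value of a single paralog is less certain than the sum. For the other members the share at 50 bases was 8.51% in Bax, whose partner Gm45808 was listed at 0 counts in both libraries, and at most 0.135% elsewhere.

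**Figure D1:**
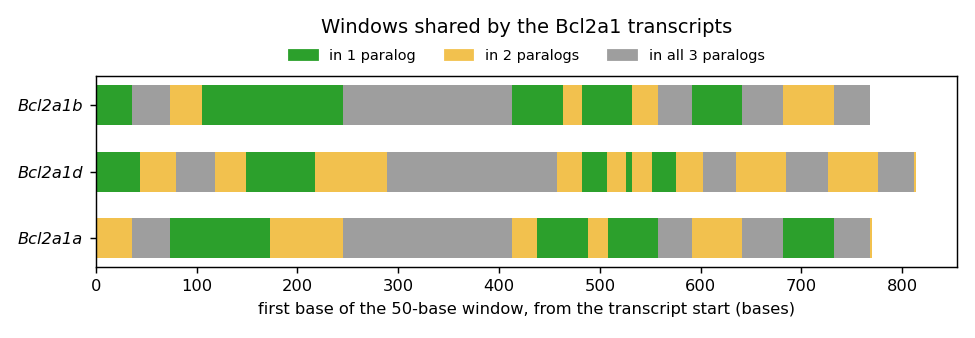
Stretches of 50 bases along the transcripts of Bcl2a1b, Bcl2a1d and Bcl2a1a, placed by the distance of their first base from the transcript start and coloured by how many of the 3 paralogs hold the same stretch. Stretches held by all 3 make up 41.1% of Bcl2a1b, 38.8% of Bcl2a1d and 41.0% of Bcl2a1a.

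The highest member was Bcl2a1b. In TPM, which gives transcripts as a share of the library after scaling to length, it had 1413 in replicate 1 and 624 in replicate 2, with a mean of 1019 ± 558 TPM (SD, n = 2, as for all means below). Among 22015 nuclear protein-coding genes it ranked 76 in replicate 1 and 213 in replicate 2. Bcl2a1d followed with 900.4 and 544 TPM in replicates 1 and 2 (722 ± 252 TPM). Bcl2a1a had 209 TPM in replicate 1 against 122 TPM in replicate 2 (165 ± 61.2 TPM). All 3 paralogs were higher in replicate 1 by TPM, and the ranges of Bcl2a1b and Bcl2a1d overlapped, so that the order of these neighbours is within their spread, although Bcl2a1b was the higher one in each library.

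Summed over the paralogs, the level was 2522 TPM in replicate 1 against 1290 TPM in replicate 2, which was 87.7% and 76.0% of the pro-survival TPM. Bcl2a1b made up 56.0% of the sum in replicate 1 and 48.4% in replicate 2. Bcl2a1d held 35.7% in replicate 1 and 42.1% in replicate 2, and Bcl2a1a 8.27% and 9.46%. The order of the paralogs within the sum was the same in both libraries and in a second quantification of the same reads, where Bcl2a1b held 56.1% and 48.5%. The posterior SD that the authors deposited with the counts, a measure of how reads could be divided otherwise, was 22.7 and 30.4 counts for Bcl2a1a (2822 and 2876 counts), 25.1 and 26.8 counts for Bcl2a1b (19055 and 14669 counts) and 28.6 and 36.7 counts for Bcl2a1d (13174 and 13801 counts). For the other members it was between 0 and 0.75 counts. Gm29094 shares 401 exonic bases and the strand with Bcl2a1b and was listed with 329 and 305 counts. The remaining paralog, Bcl2a1c, had 47.0 and 16 counts in replicates 1 and 2 and was listed at 0 in the second quantification.

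The upstream sequences of the 3 paralogs are copies as well, and are shown to describe that the copies extend beyond the transcripts. How far they extend was not measured. Any part of these sequences in the paralogs' levels was not tested. The 120 bases before the annotated transcript start were taken from RefSeq (GRCm38.p6), and capitals mark GAGGAAGT, a purine-rich word with the core bound by ETS factors such as the macrophage factor PU.1. The windows are chr9:88956780-88956899 on the plus strand for Bcl2a1a, chr9:89199089-89199208 on the plus strand for Bcl2a1b and chr9:88731915-88732034 on the minus strand for Bcl2a1d.
Bcl2a1a: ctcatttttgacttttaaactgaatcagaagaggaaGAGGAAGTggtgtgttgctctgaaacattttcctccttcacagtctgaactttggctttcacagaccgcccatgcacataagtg
Bcl2a1b: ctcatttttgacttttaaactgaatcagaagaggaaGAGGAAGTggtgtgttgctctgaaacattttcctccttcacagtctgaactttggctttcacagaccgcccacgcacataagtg
Bcl2a1d: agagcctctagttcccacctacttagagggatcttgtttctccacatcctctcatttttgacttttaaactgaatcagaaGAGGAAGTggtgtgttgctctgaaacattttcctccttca

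The word begins 84 bases before the start of Bcl2a1a, 84 before that of Bcl2a1b and 40 before that of Bcl2a1d. The Bcl2a1d window is thus shifted against the others within the copied sequence. Searched on both strands in windows of 250 bases before to 50 after the RefSeq start, it occurs in 4 of the 9 members that the promoter table holds (the 3 paralogs and Bak1) and in 3.20% of all 32851 windows. The matches in the 3 paralogs are in copies of 1 sequence, and a match is a description of letters, not of binding.

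Mcl1 (ENSMUSG00000038612.16, chr3:95658788-95663176, plus strand), the short-lived pro-survival protein that restrains Bak1, differed least between the libraries by TPM among the 10 members. It had 308 TPM in replicate 1 against 322 TPM in replicate 2 (315 ± 9.38 TPM) and ranked 492 and 448. Its transcript Mcl1-201, which encodes 331 codons, carried 100% of the gene in both libraries. The second quantification gave Mcl1-202, with 285 codons, 0% of the gene in replicate 1 and 12.02% in replicate 2.

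Bcl2l1 (ENSMUSG00000007659.18, chr2:152780668-152831728, minus strand), the gene of BCL-XL, had 45.6 TPM in replicate 1 against 84.5 TPM in replicate 2 (65.1 ± 27.5 TPM). It was higher in replicate 2. The transcripts with the 699-base coding sequence of the long, pro-survival form, Bcl2l1-201 and Bcl2l1-202, carried 87.6% of its TPM in replicate 1 and 69.9% in replicate 2, and 84.4% and 44.7% in the second quantification. Bcl2l1-202 led in replicate 1 with 44.7% and Bcl2l1-201 led in replicate 2 with 39.4%, and the posterior SD of their counts was 96.0 to 150 counts. The non-coding Bcl2l1-209 was at 0 TPM in replicate 1 against 14.2 TPM in replicate 2, 16.8% of the gene there. In the second quantification Bcl2l1-202 again led in replicate 1 with 48.8%, but in replicate 2 Bcl2l1-209 was the first with 27.9%, before Bcl2l1-202 at 24.1% and Bcl2l1-201 at 20.6%.

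Bcl2 (ENSMUSG00000057329.7, chr1:106538178-106714274, minus strand), the founding member, was the lowest of the 10. It had 0.60 TPM (91 counts) in replicate 1 and 0.41 TPM (111 counts) in replicate 2, a mean of 0.505 ± 0.134 TPM. It was the 1 member under 1 TPM, and 9 of 10 members reached 1 TPM in both libraries. Of all 55536 genes, 10731 reached 1 TPM in replicate 1 and 10310 in replicate 2. These totals are also the background for such counts in the further lists below. Bcl2-201 led with 80.3% and 92.3% of the gene in replicates 1 and 2, and with 59.0% and 61.7% in the second quantification.

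Of the effectors, Bak1 (ENSMUSG00000057789.14, chr17:27019810-27029009, minus strand) had 129 TPM in replicate 1 against 248 TPM in replicate 2 (188.5 ± 84.8 TPM). Bax (ENSMUSG00000003873.11, chr7:45461697-45466898, minus strand) had 70.4 TPM in replicate 1 against 59.8 TPM in replicate 2 (65.1 ± 7.53 TPM). Bak1 was thus above Bax in both libraries. Bax-201, with 192 codons, carried 84.8% of Bax in replicate 1 and 90.6% in replicate 2.

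Of the BH3-only genes, Bcl2l11 (ENSMUSG00000027381.16, chr2:128126038-128162547, plus strand), the gene of BIM, had 21.6 TPM in replicate 1 against 29.0 TPM in replicate 2 (25.3 ± 5.26 TPM). Bcl2l11-205, whose 196 codons are those of the extra-long BIM form, led with 42.2% of the gene in replicate 1 and 33.4% in replicate 2. The 110-codon form, known as short BIM, held 18.8% in replicate 1 and 21.4% in replicate 2, and the 140-codon form, known as long BIM, 12.6% and 12.2%. Bcl2l11-202, with 91 codons, held 21.7% and 28.9% in replicates 1 and 2. In the second quantification Bcl2l11-204, a transcript of the 110-codon form, was the first in replicate 2 with 29.5%, above Bcl2l11-205 at 26.4%. Pmaip1 (ENSMUSG00000024521.8, chromosome 18, plus strand), the gene of NOXA, which binds MCL1 and A1, had 7.29 TPM (424 counts) in replicate 1 and 2.40 TPM (212 counts) in replicate 2 (4.85 ± 3.46 TPM). Pmaip1-201, with 103 codons, carried 81.2% and 80.5% of it in replicates 1 and 2.

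By mean TPM the order was Bcl2a1b, Bcl2a1d, Mcl1, Bak1, Bcl2a1a, Bcl2l1, Bax, Bcl2l11, Pmaip1 and Bcl2. The ranges over the 2 libraries overlapped between Bcl2a1b and Bcl2a1d, between Bak1 and Bcl2a1a and between Bcl2l1 and Bax, and the last 2 of these pairs changed places between the libraries. All other neighbours kept both their order and separate ranges. With 2 libraries of 1 group, no test of any of these differences was made.

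**Figure D2:**
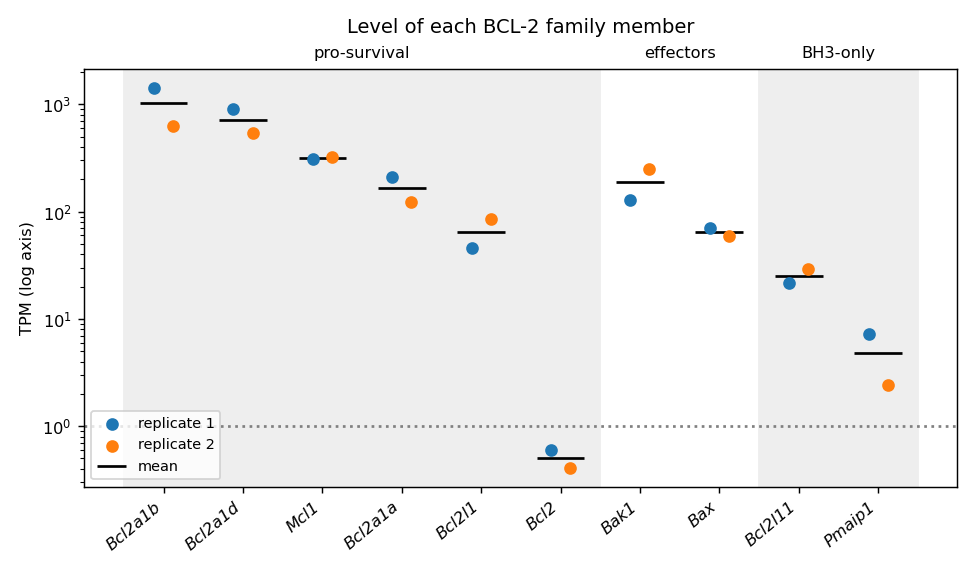
TPM of each member on a log axis, by role, with replicate 1 as the left and replicate 2 as the right point and the mean as a line; the dotted line is 1 TPM. Bcl2a1b (1413 and 624 TPM) is the highest member and Bcl2 (0.60 and 0.41 TPM) the lowest, and the pro-survival genes span the whole range.

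Set against each other, pro-survival transcripts outweighed pro-death transcripts in both libraries. Pro-survival members summed to 2877 TPM and pro-death members to 228 TPM in replicate 1, a ratio of 12.6. In replicate 2 the pro-survival sum was 1696 TPM and the pro-death sum 340 TPM, a ratio of 4.995. Over protein-coding transcripts alone the ratio was 18.9 in replicate 1 and 13.3 in replicate 2. On the log2 scale the mean ratio was 2.99 ± 0.95 (SD, n = 2). The ratio rests mostly on the Bcl2a1 paralogs. Without them, the pro-survival sum was 355 TPM in replicate 1 against 407 TPM in replicate 2, and the ratio to the pro-death sum was 1.56-fold in replicate 1 and 1.20-fold in replicate 2, still above 1 in each. That pro-death sum includes Bak1 transcripts annotated for nonsense-mediated decay, described below, with 74.4 TPM in replicate 1 and 212 TPM in replicate 2. The ratio without the paralogs was not taken over protein-coding transcripts alone. In expected counts, which are not scaled to length and so weigh the short Bcl2a1 transcripts less, the ratio with all members was 7.88-fold in replicate 1 and 3.78-fold in replicate 2.

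**Figure D3:**
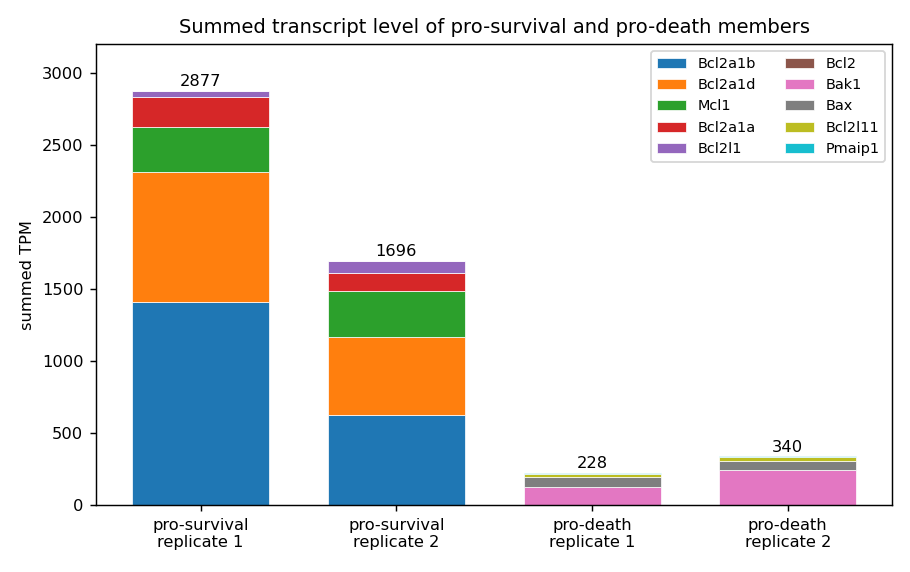
Summed TPM of the 6 pro-survival and the 4 pro-death members in replicates 1 and 2, stacked by gene, with the sum above each bar. The pro-survival sums are 2877 and 1696 TPM and the pro-death sums 228 and 340 TPM.

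Within the pro-death members the effectors outweighed the BH3-only genes. Bax and Bak1 summed to 199 TPM in replicate 1 against 308 TPM in replicate 2, and Bcl2l11 and Pmaip1 to 28.9 and 31.4 TPM. The ratio was 6.89-fold in replicate 1 and 9.81-fold in replicate 2, a mean log2 ratio of 3.04 ± 0.36 (SD, n = 2). In expected counts it was 2.83-fold in replicate 1 and 5.04-fold in replicate 2. Over protein-coding transcripts alone it was 4.47-fold in replicate 1 and 3.18-fold in replicate 2, so that both its size and which library had the larger value depended on the transcripts counted.

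Most Bak1 RNA was assigned to transcripts annotated as targets of nonsense-mediated decay, the pathway that degrades RNAs with a premature stop codon. These transcripts, Bak1-201 and Bak1-204, held 57.9% of the gene's TPM in replicate 1 and 85.2% in replicate 2. Bak1-201 holds an exon of 20 bases, chr17:27021663-27021682 on the minus strand, that the full-length Bak1-202 lacks, and 20 is not a multiple of 3, so the exon shifts the reading frame. A small frame-shifting exon of Bak1 is known from mouse neurons, and whether it is this one was not checked. The junction is shown with and without the exon, which stands in capitals.
Bak1-201: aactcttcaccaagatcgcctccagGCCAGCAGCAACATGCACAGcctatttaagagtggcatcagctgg
Bak1-202: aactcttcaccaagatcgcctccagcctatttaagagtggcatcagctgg

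Bak1-204 lacks 5 bases at the start of an exon, chr17:27022873-27022877 on the minus strand, which are in capitals in the full-length transcript.
Bak1-202: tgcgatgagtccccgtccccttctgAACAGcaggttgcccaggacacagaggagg
Bak1-204: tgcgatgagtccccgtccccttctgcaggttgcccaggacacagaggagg

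Bak1-201 had 24.6 TPM in replicate 1 against 146 TPM in replicate 2, which is 19.1% and 58.7% of the gene. Bak1-204 had 49.8 TPM in replicate 1 against 65.7 TPM in replicate 2 (38.7% and 26.5%). Both were higher in replicate 2, Bak1-201 by far the more. Bak1-203, a coding transcript of 146 codons, had 34.4 and 36.2 TPM in replicates 1 and 2. Bak1-202, the transcript with the whole 209-codon coding sequence, had 19.8 TPM (15.4%) in replicate 1 against 0.58 TPM (0.23%) in replicate 2.

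The protein-coding transcripts of Bak1 together had 54.2 TPM in replicate 1 against 36.8 TPM in replicate 2. The whole gene was thus lower in replicate 1, and the sum of its coding transcripts was higher there. The higher sum came from Bak1-202 alone, since Bak1-203 was slightly lower in replicate 1 (34.4 against 36.2 TPM). The second quantification gave decay-annotated transcripts 52.7% and 83.9% of Bak1 and put Bak1-202 at 32.4 TPM in replicate 1 against 0.66 TPM in replicate 2. In the first quantification, expected counts of Bak1-202 were 1045 with a posterior SD of 130 in replicate 1 and 51.2 with a posterior SD of 24.7 in replicate 2. Ggnbp1 overlaps Bak1 on the opposite strand by 437 exonic bases, and 17.1% of the 50-base stretches of Bak1 occur there in reverse. For the entry with the longer overlap, the first quantification gave 0.34 TPM in replicate 1 against 0.07 TPM in replicate 2, and the second gave 5.77 and 12.2 TPM. The further entry had 0.07 TPM in both libraries by the first quantification, and 0.092 and 0.038 TPM by the second. Whether counting used strand is not stated, and the part of this overlap in the Bak1 values was not tested.

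**Figure D4:**
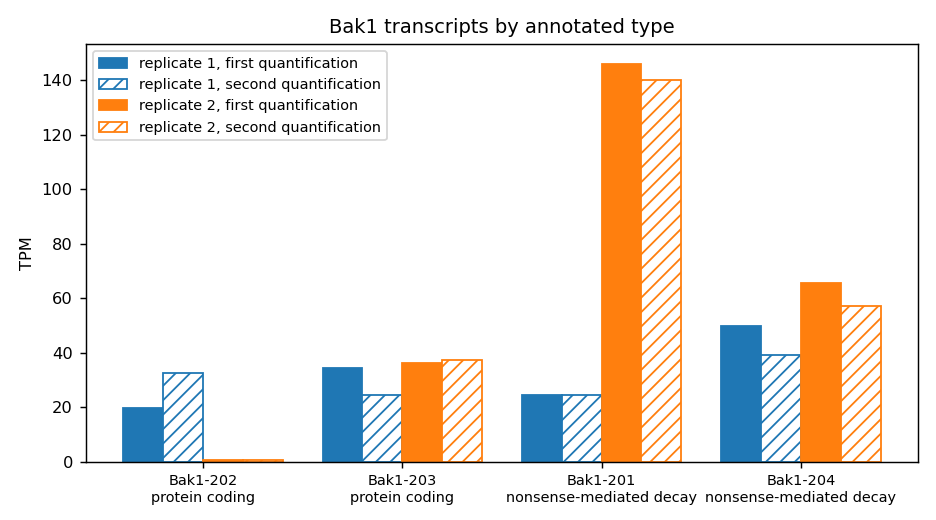
TPM of the 4 annotated Bak1 transcripts in replicate 1 (blue, left) and replicate 2 (orange, right), from the first quantification (filled bars) and the second (hatched bars), with the annotated type under each name. Bak1-201 has 24.6 TPM in replicate 1 against 146 TPM in replicate 2, while Bak1-202 has 19.8 and 0.58 TPM.

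Between the libraries, members were compared by the ratio of their TMM-scaled counts (replicate 1 over replicate 2), and called different past 1.5-fold. With 1 library on each side this call holds no test, and the intervals are exact 95% intervals that cover counting error only. Of the 10 members, 4 were past 1.5-fold. Pmaip1 (2.93-fold, interval 2.50 to 3.50) and Bcl2a1b (1.92-fold, 1.88 to 1.96) were higher in replicate 1. Bak1 (ratio 0.435, 0.420 to 0.449) and Bcl2l1 (ratio 0.558, 0.531 to 0.585) were lower in replicate 1. Among all 12226 genes with enough counts, 35.8% were past 1.5-fold, with 19.1% higher and 16.7% lower in replicate 1. A share of 4 in 10 is near that background and is not a result about these genes.

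The other members stayed within 1.5-fold. Bcl2a1a had a ratio of 1.45 and Bcl2a1d of 1.41, close to the limit. Mcl1 had 0.852, Bcl2l11 0.731, Bax 1.01 with an interval of 0.938 to 1.10, and Bcl2 1.21 with an interval of 0.907 to 1.61. The intervals of Bax and Bcl2 include 1, so differences of this size could come from counting error alone, and that of Bcl2 reaches past 1.5-fold. The paralogs summed had 35052 counts in replicate 1 and 31346 in replicate 2, and a ratio of 1.65 (1.63 to 1.68). The median log2 ratio was 0.15 over the members and 0.01 over all genes.

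Base composition, taken from the longest annotated transcript of each gene, moved with the ratios of all genes. In the tenth of genes with the lowest GC content (31% to 41%) the median log2 ratio was 0.61, and in the tenth with the highest (57.3% to 78.3%) it was -0.15. Above 45.4% GC the medians of such groups lay between -0.19 and -0.02. The Bcl2a1 transcripts have 44.1% to 44.6% GC and Pmaip1 42.1%, against 55.9% in Bcl2l1 and 57.1% in Bak1. Bax, with a ratio of 1.01, had the highest GC content of the members at 63.5%, and Mcl1 and Bcl2l11 had 48.7% and 48.0%. The longest transcript need not be the main one. It was Bax-203 in Bax (8.84% and 5.47% of the gene in replicates 1 and 2) and Bak1-202 in Bak1 (15.4% and 0.23%). With the trend over GC content and length removed, Bcl2a1b had a ratio of 1.41 and was no longer past 1.5-fold, Bcl2a1a and Bcl2a1d had 1.07 each, and Pmaip1 (2.28), Bak1 (0.481) and Bcl2l1 (0.622) stayed past it. Upper-quartile scaling moved the median of all genes by 0.12 on the log2 scale and made 66.2% of calls higher in replicate 1, against 53.4% with TMM. Under it, and by log2(TPM + 1), 6 members passed, with Bcl2a1a and Bcl2a1d added as higher in replicate 1, while 36.2% and 35.1% of all genes passed at these settings.

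**Figure D5:**
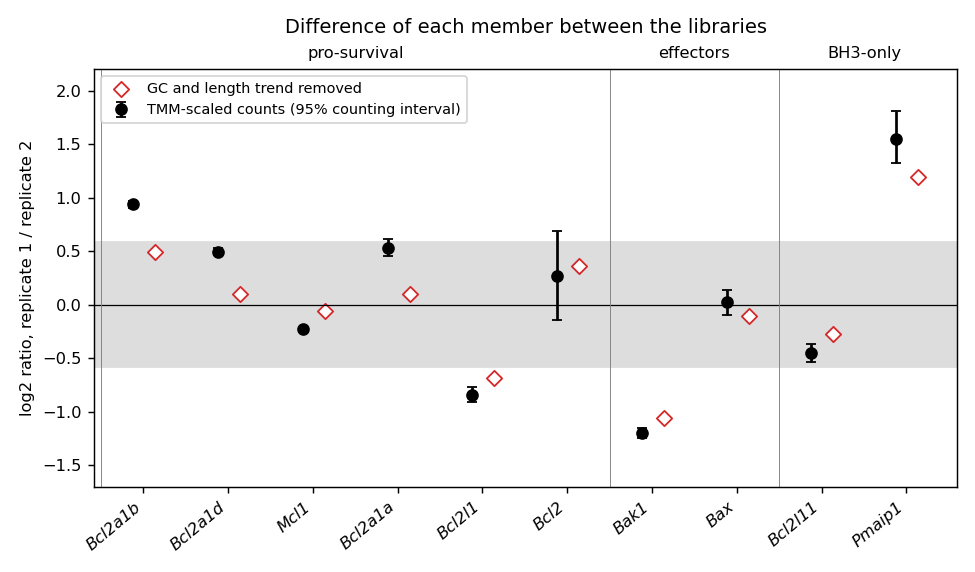
Log2 of each member's replicate 1 to replicate 2 ratio in TMM-scaled counts, with its 95% counting interval (black), and the same ratio with the GC and length trend removed (red diamonds); the grey band is within 1.5-fold. Pmaip1 and Bcl2a1b lie above the band and Bcl2l1 and Bak1 below it, and without the trend Bcl2a1b lies inside the band at a ratio of 1.41.

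Markers of other cells moved with the libraries too. All 8 macrophage markers were above 1 TPM, led by Lyz2 (10495 and 13567 TPM in replicates 1 and 2) and Cd68 (2496 and 5400 TPM). The 12 neutrophil markers summed to 547 TPM in replicate 1 against 178 TPM in replicate 2, with 4 of 12 above 1 TPM in both, S100a9 at 316 and 10.2 TPM and Csf3r, which macrophages also express, at 81.7 and 153 TPM. Csf3r thus made up most of the sum in replicate 2. The ratios of the 6 neutrophil markers with enough counts were split, so their median log2 ratio of 2.88 stands for no single marker. S100a8, S100a9 and Ltf had ratios of 17.2, 24.5 and 21.2, and Mmp9 (46 and 20 counts) had 3.14. Mmp8 (8.71 and 8.15 TPM) had a ratio of 0.945, and Csf3r, at 0.617, was past 1.5-fold in the other direction. Ly6g, which defines neutrophils, was at 0 counts in both, and a count of 0 allows up to 0.321 TPM in replicate 1 against 0.183 TPM in replicate 2. Dendritic cell markers summed to 14.7 TPM and 4.20 TPM with 1 of 6 above 1 TPM in both, Ccr7 at 9.85 and 2.92 TPM being the highest and Clec9a the next at 2.43 and 0.43 TPM. B cell markers summed to 1.56 and 0.66 TPM, with Cd79b highest, and mast cell markers to 1.48 and 0.55 TPM, with Kit and Cpa3 highest. Of the T cell markers Cd4 had 44.8 and 79.9 TPM and the next, Cd8a, 0.12 TPM and 0, while Cd3g and Trac were at 0 in both. Markers at 0 in both libraries were 1 neutrophil, 2 T cell and 2 mast cell genes, and no macrophage, B cell or dendritic cell gene. Neutrophils and dendritic cells also express Bcl2a1 genes, and the part of such cells in the paralogs' higher level in replicate 1 was not tested. In bulk RNA, fewer cells of a type and less RNA per cell cannot be told apart.

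The 16 remaining genes of the family were mostly low. There were 9 that reached 1 TPM in both libraries, and Bcl2l10, Bok, a further effector, and the BH3-only gene Hrk were at 0 counts in both. The highest were the mitophagy receptor Bnip3l (72.3 TPM in replicate 1 against 58.5 TPM in replicate 2), Bid (42.5 and 59.4 TPM), the BH3-only protein that caspase-8 cuts, and Bad (25.3 and 18.7 TPM), a BH3-only protein controlled by phosphorylation. Of the 10 with enough counts, Bcl2l2 (ratio 1.62), Bnip3 (1.89), Bnip3l (1.53) and Bcl2a1c (3.90) were past 1.5-fold and higher in replicate 1, and Bid (0.636) was lower in replicate 1. With the GC and length trend removed, Bnip3 (1.36), Bnip3l (1.21) and Bid (0.703) were no longer past it. The ratio of Bcl2a1c rests on 47.0 and 16 counts, and the second quantification listed this gene at 0 in both libraries. The median log2 ratio of these 10 genes was 0.21. For the calls in this list and those below, the background is the 35.8% of all genes past 1.5-fold.

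In the mitochondrial apoptosis machinery, a list of outer-membrane channels, released factors, caspases and their inhibitors, 16 of 18 genes reached 1 TPM. The outer-membrane channel Vdac2, which holds BAK at the mitochondria, led with 247 TPM in replicate 1 against 262 TPM in replicate 2. Birc3, the cIAP2 ubiquitin ligase, had 148 and 167 TPM. The nuclease gene Endog was the lowest at 0.35 and 0.20 TPM. Of the 17 with enough counts, 2 were past 1.5-fold, the caspase inhibitor Xiap (58.0 and 28.0 TPM, ratio 1.81) and the mitotic gene Birc5 (3.26 and 0.84 TPM, ratio 2.64), both higher in replicate 1, and Xiap had a ratio of 1.13 with the GC and length trend removed. The median log2 ratio of the list was 0.08.

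Of the 5 genes that control the turnover of MCL1 protein, 4 reached 1 TPM. The deubiquitinase gene Usp9x had 61.7 TPM in replicate 1 against 38.1 TPM in replicate 2 and was the 1 past 1.5-fold (ratio 1.57, or 1.15 with the GC and length trend removed). The ubiquitin ligase genes Huwe1 (18.7 and 21.8 TPM) and Fbxw7 (7.81 and 9.84 TPM) followed, and Trim17 was the lowest at 0.32 and 0.21 TPM. With the trend removed, Btrc (0.603, from 0.802) and Trim17 (1.61, from 1.39, on 26.8 and 28.2 counts) came past 1.5-fold. The median log2 ratio of the list was -0.32.

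In the death receptor pathway 7 of 8 genes reached 1 TPM. Cflar, whose product cFLIP holds caspase-8 in check, was at 531 TPM in replicate 1 against 363 TPM in replicate 2, above Mcl1 in both. The TNF receptor gene Tnfrsf1a had 158 and 238 TPM, Casp8 had 166 and 196 TPM, and Tnfrsf10b was the lowest at 0.32 and 0.43 TPM. Tnfrsf1a (ratio 0.660) and the kinase gene Ripk1 (50.05 and 82.7 TPM, ratio 0.557) were past 1.5-fold and lower in replicate 1. With the GC and length trend removed, Tnfrsf1a (0.722) was no longer past it, while Fas came past it (0.578, from 0.708). The median log2 ratio of the list was -0.47.

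All 6 p53 target genes reached 1 TPM. The cell cycle inhibitor Cdkn1a was at 750 TPM in replicate 1 against 1002 TPM in replicate 2, Mdm2, which degrades p53, at 166 and 158 TPM, and Ccng1 at 58.7 and 35.6 TPM. Cdkn1a (ratio 0.659), Sesn2 (1.74 and 2.49 TPM, ratio 0.623) and Zmat3 (1.52 and 2.50 TPM, ratio 0.534), the lowest of the list by mean TPM, were past 1.5-fold and lower in replicate 1. With the GC and length trend removed, Cdkn1a (0.711) and Sesn2 (0.719) were no longer past it. Pmaip1 and Bax, which are also known p53 targets, had ratios of 2.93 and 1.01. The median log2 ratio of the list was -0.38.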

How the data were processed

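Per the accompanying notes, reads were assigned to mm10 genes of GENCODE M21; gene tables have the layout RSEM writes, and aligner and versions were not given in the sources used here. The authors deposited expected counts, which are estimated reads per gene or transcript with no normalization. TPM and FPKM, as deposited, take account of transcript length and library total, and the deposited percent gives a transcript's share of its gene. The estimated counts and TPM of a second transcript table, in the layout kallisto writes, were summed per gene. Rows that name no gene (26345, with 0.132% and 0.0882% of counts in replicates 1 and 2) were left out.

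Counts were rounded to whole numbers, filtered with filterByExpr and scaled by TMM in edgeR 4.0.16 (R 4.3.3), with a prior count of 2. The ratio calculation was tested on simulated counts with known folds, drawn with counting error only and no trend over GC content. That test covers the arithmetic and cannot speak to the spread between these libraries. DESeq2 1.42.0 size factors, upper-quartile scaling and a lowess trend over GC content and length were alternatives, with the others named at the end. No p-value was made: with 1 group of 2 libraries there is no comparison of groups, and p-values over genes would not measure replicate spread. The labels give 2 biosamples, and n is 2 on that ground; whether the cultures were separate is not stated. Their counts were not duplicates (chi-square of 325 per gene, 12226 genes). PCR reads are not independent molecules, and intervals and limits cover counting error only. Genes, transcripts and coding sequences came from GENCODE M21, upstream sequence from RefSeq (9 of 10 members matched).

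The members, the 11 further lists (97 genes) and the alternatives were chosen with earlier results of these data known. Named are all members, the 3 highest and the lowest gene of each further family or pathway list with each one past 1.5-fold, the 2 highest of each marker list, and leading transcripts or those with 10% of a gene in both libraries. Values of some single genes that this rule takes are left out here. Bok, Hrk, Bcl2l1-209, Mcl1-202, Bak1-202, Bak1-203, Bax-203, Bcl2l11-204, Fas, Btrc, Ly6g, S100a8, Ltf, Mmp8, Mmp9, Gm29094, Gm45808, Ggnbp1, Cd3g and Trac were named after their values were seen.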

Additional observations from a re-analysis of the deposited data

How the results depend on the processing

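The log2 ratio of pro-survival over pro-death TPM (2.99) was 3.99 over protein-coding transcripts alone (18.9-fold in replicate 1 and 13.3-fold in replicate 2) and 0.45 without the Bcl2a1 paralogs. It lay between 2.41 and 3.02 by the second quantification, FPKM, expected counts, medians of members, lists widened by other family genes and without Pmaip1. The log2 ratio of effectors over BH3-only genes (3.04) was 1.92 in expected counts and 1.92 over protein-coding transcripts. At 2-fold in place of 1.5-fold, 2 of 10 members (Pmaip1 and Bak1) and 1613 of 12226 genes (13.2%) were past the limit. With no filter on low counts 9157 of 19845 genes were past 1.5-fold. Members past 1.5-fold numbered 4 with DESeq2 size factors, no filter or the second quantification (36.1%, 46.1% and 36.3% of all genes), 6 with upper-quartile scaling or log2(TPM + 1) (36.2% and 35.1%), and 3 with the GC and length trend removed (30.2%). With 2 libraries, leaving out 1 only returns the value of the other, so it is no separate check. The values of the single libraries were 2.32 and 3.66 for the first ratio and 2.79 and 3.29 for the second. Each library had 9 members at 1 TPM, and the paralog sum was 1290 and 2522 TPM. The parts of that sum lay between 8.27% and 9.46% for Bcl2a1a, 48.4% and 56.0% for Bcl2a1b, and 35.7% and 42.1% for Bcl2a1d. Of single genes, Bcl2 moved to 0.687 TPM by the second quantification, Bak1 to 45.5 TPM over protein-coding transcripts, where its higher library changed to replicate 1, and Mcl1 to 380 TPM and Bax to 78.5 TPM when TPM was rescaled over nuclear protein-coding genes. No paired analysis was possible because the series holds 1 group.

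Depth limits Bcl2, with 91 and 111 counts in replicates 1 and 2, and Pmaip1, with 424 and 212 counts. The split of the Bcl2a1 paralogs is limited by the stretches they share, and the Bak1 and Bcl2l1 transcripts named here carry posterior SDs of up to 167 counts.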
